A study of Caenorhabditis elegans with 18 samples.

Results

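The comparison is of Caenorhabditis elegans adults of 2 genotypes: the wild-type strain N2 and the strain MT23643, which carries hira-1(gk835598) and is written hira-1(-) here. Of the 18 samples in the series, 4 adult libraries were used, replicates 1 and 2 of each genotype, chosen by the column names of the deposited count table (one column writes a digit for a letter of the label), and each adult group has 1 further labelled sample that was not analysed here. Both genotypes were grown at 20°C on agar plates with the bacterium Escherichia coli OP50 as food, and RNA with a poly(A) tail was sequenced from paired ends. The series calls the mutant null, and the labels give neither the change that the allele makes in the transcript nor the age of the adults, their sex or the number of animals per library. Effects of other differences between the strains, or in how the animals were staged, cannot be told apart from those of the allele. No label says whether replicates were separate cultures. The p-values therefore reflect only the spread among these libraries and the 4 larval libraries of stage L4 fitted with them. That spread may be technical.

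HIRA is a histone chaperone that places the histone variant H3.3 into chromatin outside DNA replication, in contrast to the CAF-1 complex, which places H3 behind replication forks. In the worm, H3.3 is found in the germ line and in somatic cells, and genes for H3.3 are transcribed in cells that no longer divide. The adult hermaphrodite holds a large germ line that makes oocytes after it has made sperm, embryos in the uterus, an intestine that makes yolk, and a hypodermis that has finished its last molt and carries an adult cuticle.

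The 4 libraries held between 26010307 and 31174599 estimated counts. Ribosomal RNA took 0.392% to 1.82% of them, with the highest share in N2 replicate 1. The 100 genes with most counts took 26.1% and 24.6% in N2 and 20.1% and 20.5% in hira-1(-). Across genes, Spearman's correlation of log2 CPM (estimated counts on a common library size) was 0.995 between the replicates of either genotype and 0.951 to 0.952 between genotypes. The targeted gene hira-1 (K10D2.1) stood at 108 and 109 CPM in N2 and 40.7 and 40.0 CPM in hira-1(-) (log2 fold change -1.43, SE 0.065, adjusted p = 2.0e-09, by edgeR's quasi-likelihood test). Its transcript was lower in both mutant libraries and was not absent from them. The adult label could be checked against tissue genes: all 32 oocyte and eggshell genes were tested and summed to 21430 and 22380 CPM in N2 and 21430 and 22140 CPM in hira-1(-), and the 6 vitellogenin genes, which make yolk protein in the adult intestine, were among the most abundant transcripts in every library.

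Most tested genes differed between the genotypes, and most of the large differences were rises in the mutant. Of 16770 genes tested, 9235 (55.1%) passed an adjusted p of 0.05, 4790 higher in hira-1(-) (28.6% of those tested) and 4445 lower (26.5%). At least 2-fold, 2542 were higher (15.2%) and 1053 lower (6.28%). At least 8-fold, 694 were higher and 79 lower, and at least 16-fold, 320 and 23. The median log2 fold change of the genes that rose was 1.08, and of those that fell -0.49. The libraries of the 2 genotypes did not overlap for 78.9% of the tested genes.

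Genes below 10 CPM accounted for most rises and genes at or above it for most falls. Among genes with a mean under 1 CPM over the 4 libraries, 1063 rose and 249 fell (median log2 fold change 0.65, 3585 tested). From 1 to 10 CPM, 1955 rose and 1153 fell. From 10 to 100 CPM the split turned, with 1373 higher and 1914 lower (median -0.064), and at 100 CPM and over 399 were higher and 1129 lower (median -0.12, 2314 tested). The split of small changes moved with the scaling: 51.9% of calls were higher with TMM scaling, 44.8% with RLE scaling and 75.6% when libraries were divided by their totals alone. Without the 100 most abundant genes, whose share of counts was smaller in the mutant, it was 48.1%. Over all genes the median log2 fold change stood at 0.029, and at 0.24 with library totals, so a change is relative to that centre. The genes called at least 2-fold moved less with the scaling: of those 3595, 3556 passed in the same direction with library totals and none had the opposite sign. Of all tested genes, 2974 lay under 1 CPM in both adult genotypes, and 850 of them were called. A gene can pass the filter on low counts through the group where it is high, also a larval one (stage L4) fitted with the adults. The counts for gene lists are therefore over tested members and not over all members.

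**Figure D1:**
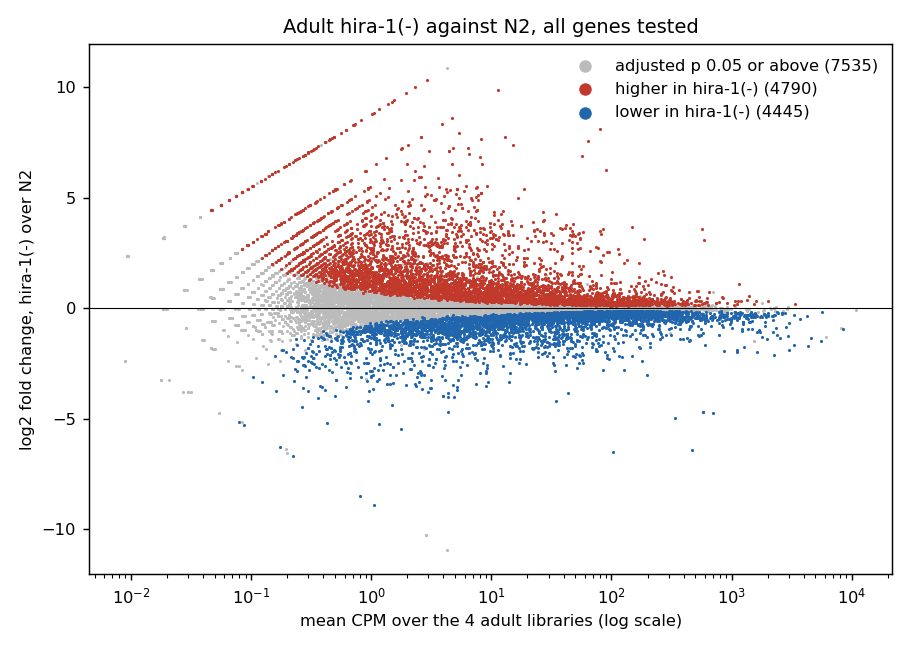
Log2 fold change of hira-1(-) over N2 adults (y axis) against mean CPM over the 4 adult libraries (x axis, log scale) for the 16770 genes tested. Red points are the 4790 genes that were higher and blue points the 4445 that were lower at an adjusted p under 0.05; red spreads furthest from 0 on the left and blue dominates near 0 on the right. Straight diagonal streaks on the left are genes with 0 or few counts in 1 genotype.

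**Figure D2:**
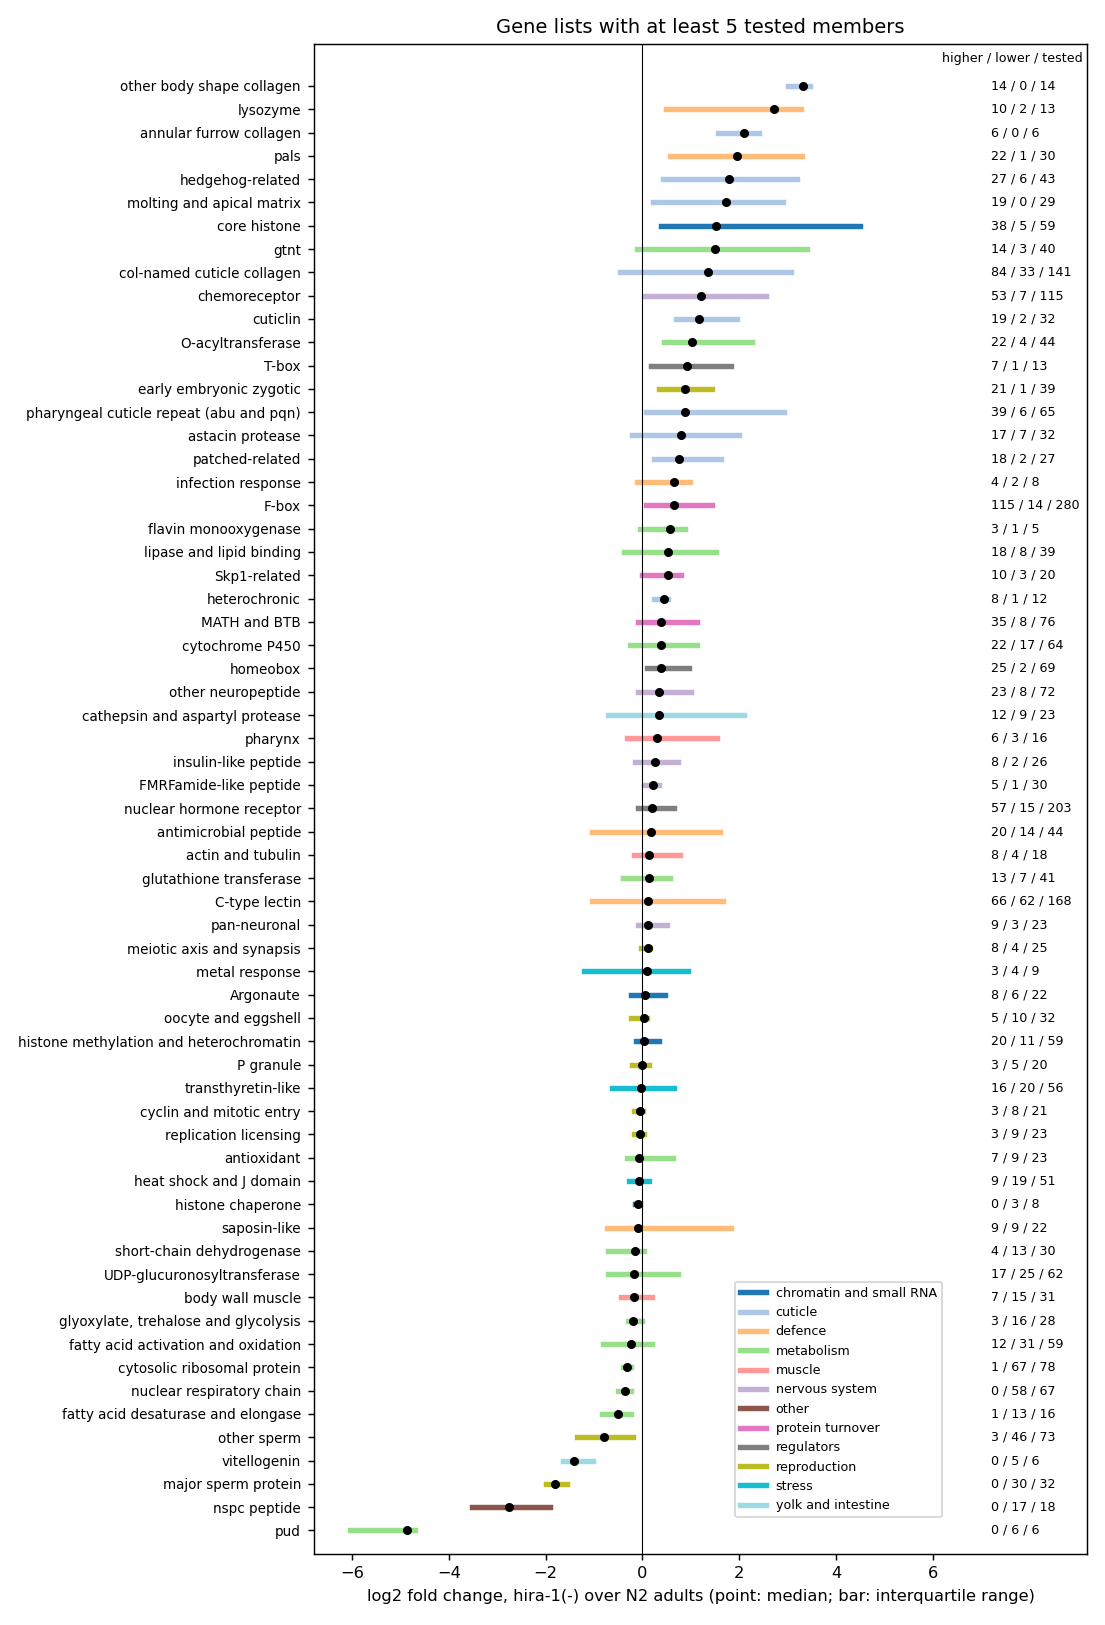
Median (point) and interquartile range (bar) of the log2 fold change of the tested members of each gene list with at least 5 tested members, ordered by median and coloured by theme; the numbers at the right are members higher, lower and tested. Most lists of the cuticle lie in the upper part, and the pud, nspc, sperm and yolk lists at the bottom.

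The largest falls were in a family of small, abundant proteins of unknown biochemical role. The pud genes are named for proteins that accumulate in mutants of the insulin receptor gene daf-2, and all 6 fell (median log2 fold change -4.86). The gene pud-3 (F15E11.15) stood at 962 and 876 CPM in N2 and 11.8 and 9.99 CPM in hira-1(-) (log2 fold change -6.40, SE 0.095, adjusted p = 2.4e-13). The gene pud-4 (F15E11.12) stood at 210.1 and 194 CPM in N2 and 2.63 and 1.81 CPM in hira-1(-) (log2 fold change -6.50, SE 0.11, adjusted p = 1.8e-12). The gene pud-1.2 stood at 1462 and 1234 CPM in N2 and 52.9 and 47.5 CPM in hira-1(-) (log2 fold change -4.75, SE 0.091, adjusted p = 2.7e-12), and pud-1.1 fell by 4.97 on the log2 scale. The copies pud-2.1 and pud-2.2 had identical values in every library (1124 and 1087 CPM in N2 and 43.0 and 42.1 CPM in hira-1(-)), so their reads cannot be assigned to either. All 6 pud genes were among the named largest falls, for which no overlap between genotypes was a condition. The summed level of the family went from 5499 and 5171 CPM in N2 to 174 and 165 CPM in hira-1(-).

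A second family among the largest falls was nspc, a group of short nematode-specific peptides, listed after its members had been seen there. Of 18 tested nspc genes 17 fell and none rose (median -2.75). The gene nspc-18 stood at 8.64 and 8.14 CPM in N2 and 0.223 and 0.415 CPM in hira-1(-) (log2 fold change -4.70, SE 0.25, adjusted p = 9.3e-09). The gene nspc-19 stood at 8.77 and 7.53 CPM in N2 and 0.705 and 0.415 CPM in hira-1(-) (log2 fold change -3.85). For nspc-2 and nspc-6, which had identical values, the fall of 3.97 on the log2 scale passed (adjusted p = 0.0047), and 1 mutant library had no count. Without that library the fall was 2.99, and with it as the only mutant library the fitted fold is no measure of size. The family's summed level was 269 and 194 CPM in N2 and 51 and 45.9 CPM in hira-1(-), with no overlap. The other genes with a name among the 12 largest falls were clec-197, a C-type lectin (9.06 and 9.36 CPM in N2 and 0.519 and 0.603 CPM in hira-1(-); log2 fold change -4.03), and dhs-26, a short-chain dehydrogenase (9.56 and 6.85 CPM in N2 and 0.482 and 0.528 CPM in hira-1(-); log2 fold change -4.01). Among genes with a sequence name only, the largest falls were those of C32H11.4 (64.9 and 65.4 CPM in N2 and 4.15 and 2.98 CPM in hira-1(-); log2 fold change -4.19), T22B7.7 (log2 fold change -3.84) and F18E9.7 (log2 fold change -3.61).

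The largest rises were of genes that were near or at 0 in N2. The saposin-like genes spp-21 and spp-9, which belong to a family of membrane-active peptides, had 1 and 2 counts over both N2 libraries. The mutant level over the N2 level gave a ratio of 269 (exact 95% interval 47.9 to 10675) in spp-21 and of 156 (exact 95% interval 43.0 to 1297) in spp-9. These intervals, and the floor used for genes with no count, cover counting error only. The long non-coding RNA tts-1, known from its high level in long-lived daf-2 mutants, where it associates with ribosomes, stood at 3.13 and 1.61 CPM in N2 and 186 and 169.6 CPM in hira-1(-) (log2 fold change 6.26, SE 0.19, adjusted p = 1.5e-07). The flavin monooxygenase fmo-2, a gene induced by hypoxia and by food restriction, stood at 0.167 and 0.0718 CPM in N2 and 8.83 and 5.31 CPM in hira-1(-) (log2 fold change 5.88, SE 0.41, adjusted p = 1.0e-07). The mutant replicates of fmo-2 differed more than those of tts-1. Genes were named among the largest rises only if the genotypes did not overlap. The lectin gene clec-42 stood at 0.209 and 0.538 CPM in N2 and 17.7 and 18.2 CPM in hira-1(-) (log2 fold change 5.52) and the acyltransferase gene oac-14 at 0.418 and 0.251 CPM in N2 and 14.1 and 15.8 CPM in hira-1(-) (log2 fold change 5.49). Leaving out 1 N2 library gave log2 fold changes of 5.36 to 6.49 for fmo-2 and 4.99 to 6.39 for clec-42. The pals family gene pals-6 stood at 0.125 and 0.179 CPM in N2 and 7.01 and 7.46 CPM in hira-1(-) (log2 fold change 5.51), and the repeat protein gene abu-1 at 0 and 0.287 CPM in N2 and 10.8 and 10.3 CPM in hira-1(-) (log2 fold change 6.05). The fold of abu-1 rests on 1 N2 library with counts, and was 5.12 on the log2 scale without N2 replicate 1, which had none. The antimicrobial peptide gene fipr-22 (log2 fold change 5.50, and 4.41 without N2 replicate 2, which had no count) and idpp-12, with a ratio of 93.3 (exact 95% interval 31.6 to 455), were also among the 12 genes with a name and the largest rises. The remaining 2, the histone genes his-52 and his-54, shared identical values, 0.125 and 0 CPM in N2 and 8.35 and 9.27 CPM in hira-1(-).

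**Figure D3:**
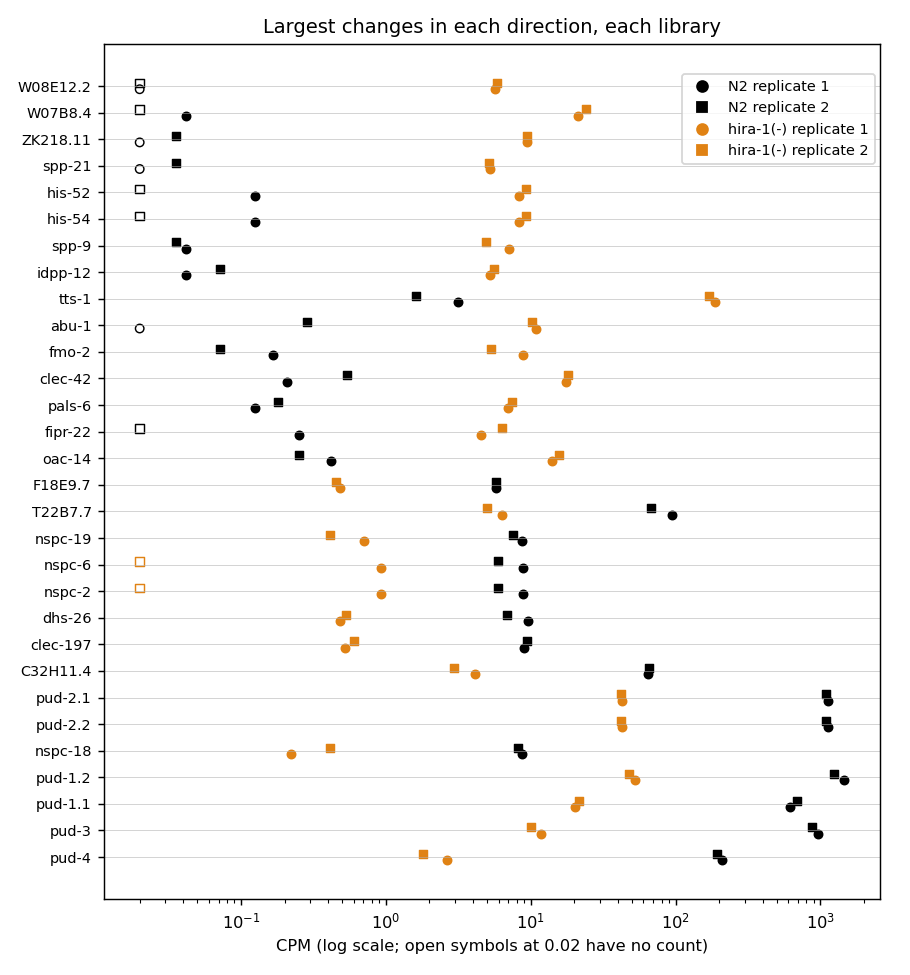
CPM (x axis, log scale) in each of the 4 adult libraries for the named genes with the largest rises and falls and for the 3 genes per direction with a sequence name only (y axis, ordered by log2 fold change). Black symbols are N2 and orange symbols hira-1(-), circles replicate 1 and squares replicate 2; open symbols drawn at 0.02 have no count. In each gene shown both orange symbols lie on one side of both black symbols, which was a condition for being shown.

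Many of the genes that went from near 0 in N2 to a clear level in the mutant have no name. Of 161 genes under 1 CPM in N2 and at or over 5 CPM in hira-1(-), 160 were called and 73 had a sequence name only. The reverse pattern was found for 21 genes, 18 of them called. W08E12.2 had no count in N2 and stood at 5.71 and 5.84 CPM in hira-1(-), at least 49.6-fold higher against a floor of 3 counts per library. W07B8.4 had 1 count over both N2 libraries and stood at 21.4 and 24.0 CPM in hira-1(-), a ratio of 1175 (exact 95% interval 211 to 46449). ZK218.11 had 1 N2 count and stood at 9.495 and 9.42 CPM in the mutant, a ratio of 490.2 (exact 95% interval 87.6 to 19398). Chosen after their values were seen, C38D9.2 (0.543 and 0.610 CPM in N2 and 161 and 158 CPM in hira-1(-); log2 fold change 8.10), C50F7.5 (0.668 and 0.646 CPM in N2 and 122 and 133 CPM in hira-1(-); 7.59) and F15D4.5 (0.919 and 0.969 CPM in N2 and 113 and 115 CPM in hira-1(-); 6.90) were the rises of this kind that reached over 100 CPM. The 3 genes went from under 1 CPM in each N2 library to over 100 CPM in each mutant library. Among all genes with a sequence name only, 4.32% of 7387 tested rose at least 8-fold, beside 4.0% of 9383 genes with a name. Of 659 pseudogenes tested 180 rose and 69 fell (median 0.19), beside 4505 and 4334 of 15699 protein-coding genes (median 0.021). The share of pseudogenes that rose was near that of protein-coding genes and the 28.6% of all genes. The share that fell was smaller.

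Not every gene without a count in 1 genotype was called. The gene cld-1 had no N2 count and stood at 4.90 and 12.1 CPM in hira-1(-) (adjusted p = 0.061, and adjusted p = 4.4e-07 with DESeq2). F56A4.2 had no mutant count and stood at 2.34 and 14.9 CPM in N2 (adjusted p = 0.48, and adjusted p = 1.2e-07 with DESeq2). F45D11.15 and F45D11.16 shared identical values of 9.65 and 1.79 CPM in N2 and no count in the mutant (adjusted p = 0.17, and adjusted p = 8.9e-06 with DESeq2). In these 4 genes the replicates of the genotype with counts differed by more than 2-fold. In all, 159 tested genes had no N2 count, of which 95 were called, and 32 had no mutant count, of which 6 were called.

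The cuticle genes split by level. The cuticle is an extracellular coat of collagens that the hypodermis makes anew at each molt, with different collagens at different stages. Of 141 tested col-named collagen genes (159 in the table), 84 rose and 33 fell (median 1.36, and 1.25 when 3 genes without a count in 1 genotype are taken at their bound). Among the 40 with a mean of 100 CPM or more, 11 rose and 25 fell (median -0.83). Among the 48 from 10 to 100 CPM, 43 rose and 3 fell (median 3.09), and among the 53 under 10 CPM, 30 rose and 5 fell (median 1.36). The summed level of the col genes was lower in the mutant, at 63850 and 57940 CPM in N2 and 32660 and 32120 CPM in hira-1(-), while most members were higher. In bulk RNA, fewer cells of a type and less RNA per cell cannot be told apart, here and in the results on other tissues.

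All 10 of the most abundant collagens fell. Col-124 was the most abundant, at 5274 and 4778 CPM in N2 and 1621 and 1557 CPM in hira-1(-) (log2 fold change -1.66, SE 0.20, adjusted p = 0.0010). Col-20 had the largest fall of the 10, at 3862 and 3526 CPM in N2 and 854 and 836 CPM in hira-1(-) (log2 fold change -2.13), and col-80 the smallest, at 2454 and 2375 CPM in N2 and 1402 and 1371 CPM in hira-1(-) (log2 fold change -0.80). These 10 genes were picked by their mean level, and their log2 fold changes ran from -2.13 to -0.80 with no overlap between genotypes. Among the collagens that rose was col-97, at 7.31 and 7.75 CPM in N2 and 86.6 and 85.03 CPM in hira-1(-) (log2 fold change 3.51, SE 0.078, adjusted p = 3.3e-12).

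Collagens known from body shape mutants rose together. They include the squat, roller, blister and dumpy genes, whose products form struts and layers of the larval or adult cuticle, and all 14 tested rose (median 3.31). The gene dpy-13 stood at 8.56 and 9.76 CPM in N2 and 94.95 and 103 CPM in hira-1(-) (log2 fold change 3.43, SE 0.085, adjusted p = 7.8e-12). The gene dpy-5 stood at 8.31 and 9.19 CPM in N2 and 87.7 and 84.4 CPM in hira-1(-) (log2 fold change 3.29). The gene dpy-4 stood at 9.56 and 12.2 CPM in N2 and 94.9 and 101 CPM in hira-1(-) (log2 fold change 3.16). The roller gene rol-6 stood at 0.960 and 1.47 CPM in N2 and 16.9 and 19.6 CPM in hira-1(-) (log2 fold change 3.88). The largest rise of the 14 was that of dpy-14, at 0.125 and 0.251 CPM in N2 and 6.19 and 3.88 CPM in hira-1(-) (log2 fold change 4.68, and 4.25 to 5.28 without 1 N2 library). The smallest rise was that of bli-6, at 46.9 and 44.4 CPM in N2 and 102 and 103.5 CPM in hira-1(-) (log2 fold change 1.17). It was also the member with the highest level in N2. The 6 collagens of the annular furrows, circumferential grooves of the cuticle that are also known as a damage sensor, all rose (median 2.09). The gene dpy-7 had the largest change of the 6, at 0.752 and 0.969 CPM in N2 and 6.71 and 5.65 CPM in hira-1(-) (log2 fold change 2.83, SE 0.48, adjusted p = 0.0049). The gene dpy-10 had the smallest, at 4.09 and 3.95 CPM in N2 and 8.87 and 9.27 CPM in hira-1(-) (log2 fold change 1.17, SE 0.35, adjusted p = 0.039), and its call was lost without any 1 of the 4 libraries (adjusted p from 0.11 to 0.15).

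**Figure D4:**
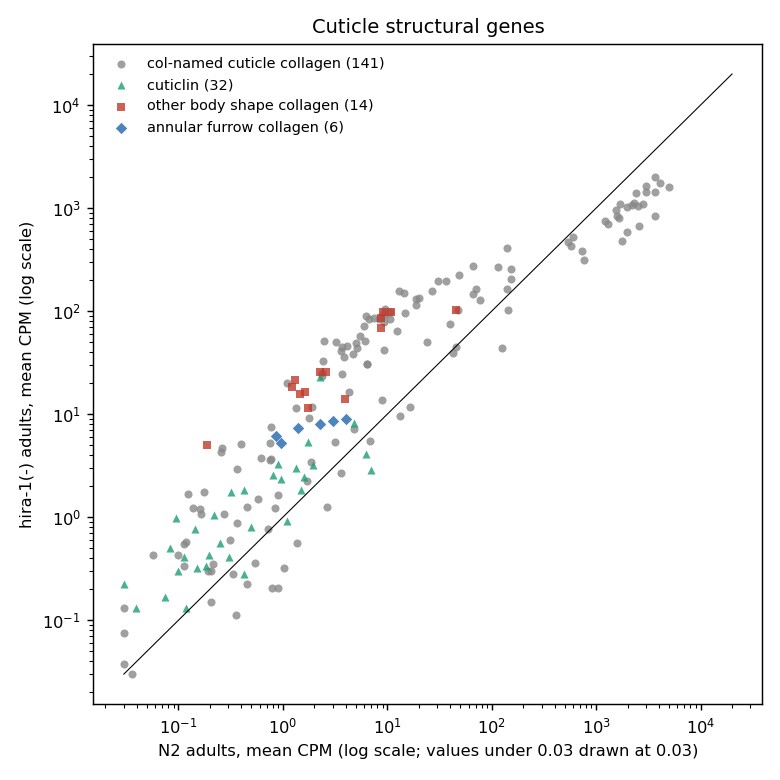
Mean CPM in hira-1(-) adults (y axis) against N2 adults (x axis), both on log scales, for tested col-named collagens (grey), cuticlins (green), body shape collagens (red) and annular furrow collagens (blue); the line marks equal levels and values under 0.03 are drawn at 0.03. The abundant grey points at the upper right lie below the line, and the red and blue points lie above it.

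Other genes of molting and of the apical matrix also rose. The matrix that covers the epidermis is laid down before each cuticle, from zona pellucida proteins, lipocalins and fibrillin-like proteins. Of 29 such genes 19 rose and none fell (median 1.72). The lipocalin gene lpr-3 stood at 0.710 and 0.466 CPM in N2 and 11.1 and 13.2 CPM in hira-1(-) (log2 fold change 4.38, SE 0.32, adjusted p = 3.3e-05). The zona pellucida gene noah-1 stood at 4.55 and 6.21 CPM in N2 and 34.9 and 35.4 CPM in hira-1(-) (log2 fold change 2.70). The fibrillin-related gene fbn-1 stood at 1.25 and 1.33 CPM in N2 and 11.2 and 10.97 CPM in hira-1(-) (log2 fold change 3.09). The gene mlt-8 stood at 1.84 and 3.12 CPM in N2 and 22.8 and 26.8 CPM in hira-1(-) (log2 fold change 3.3). The gene mlt-10, needed to shed the old cuticle, stood at 4.80 and 5.31 CPM in N2 and 18.1 and 22.2 CPM in hira-1(-) (log2 fold change 1.99). The nuclear receptor gene nhr-23, a regulator of molting, stood at 67.2 and 71.8 CPM in N2 and 66.9 and 71.4 CPM in hira-1(-) (log2 fold change -0.0087, adjusted p = 0.93, and 0.20 with library totals, adjusted p = 0.022), and nhr-25 rose (log2 fold change 0.88). Of 32 cuticlin genes 19 rose and 2 fell (median 1.16). The gene cut-2 stood at 2.05 and 2.44 CPM in N2 and 20.99 and 25.03 CPM in hira-1(-) (log2 fold change 3.35).

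Among secreted and membrane proteins tied to cuticle formation more genes rose than fell, mostly genes under 10 CPM. In that range 3018 of all 8812 genes rose and 1402 fell. There 22 of 33 hedgehog-related, 13 of 17 patched-related, 15 of 28 astacin and 25 of 40 abu and pqn genes rose. From 10 to 100 CPM 5 hedgehog-related genes rose and 4 fell, and 2 astacin genes rose and 2 fell. In the same range 5 patched-related genes rose and 2 fell, and 11 abu and pqn genes rose and 1 fell. Of 43 hedgehog-related genes 27 rose and 6 fell (median 1.78). The gene grd-2 stood at 0.251 and 0.215 CPM in N2 and 2.63 and 2.49 CPM in hira-1(-) (log2 fold change 3.44, SE 0.24, adjusted p = 1.2e-07). Of 27 patched-related genes, whose products resemble the hedgehog receptor, 18 rose and 2 fell (median 0.75). The gene ptr-17 stood at 0.125 and 0.179 CPM in N2 and 3.97 and 4.15 CPM in hira-1(-) (log2 fold change 4.68, SE 0.31, adjusted p = 6.7e-08). Of 32 astacin protease genes 17 rose and 7 fell (median 0.80). The astacins nas-24 (9.31 and 8.36 CPM in N2 and 0.816 and 0.754 CPM in hira-1(-); log2 fold change -3.48) and nas-20 (56.6 and 56.6 CPM in N2 and 8.83 and 10.3 CPM in hira-1(-); -2.57) fell, and nas-38 rose (1.46 and 1.11 CPM in N2 and 6.57 and 7.199 CPM in hira-1(-); 2.43). Of 65 abu and pqn genes, many of which encode repeat proteins of the pharyngeal cuticle, 39 rose and 6 fell (median 0.87, and 0.84 with genes at their bound). The gene abu-15 stood at 0.292 and 0.287 CPM in N2 and 9.72 and 13.5 CPM in hira-1(-) (log2 fold change 5.30). The gene pqn-36 stood at 1.38 and 1.29 CPM in N2 and 15.9 and 16.4 CPM in hira-1(-) (log2 fold change 3.60).

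Yolk and sperm transcripts were lower in the mutant. The vitellogenins, lipoproteins that the intestine secretes and oocytes take up, summed to 52080 and 43840 CPM in N2 and 18640 and 22230 CPM in hira-1(-). They took 4.61% and 3.92% of all estimated counts in N2 and 1.93% and 2.26% in hira-1(-). The gene vit-1 had the largest fall, at 5144 and 4417 CPM in N2 and 1136 and 1420.3 CPM in hira-1(-) (log2 fold change -1.90, SE 0.18, adjusted p = 2.9e-04). The gene vit-3 stood at 7149 and 6112 CPM in N2 and 1944 and 2162 CPM in hira-1(-) (log2 fold change -1.69, SE 0.19, adjusted p = 5.2e-04). The gene vit-2 stood at 11570 and 9507 CPM in N2 and 5201 and 6258 CPM in hira-1(-) (log2 fold change -0.88, adjusted p = 0.087) and did not pass, though it did when only the 4 adult libraries were fitted (adjusted p = 0.00056). The gene vit-6 passed (log2 fold change -0.93, adjusted p = 0.022). Its call was lost when either N2 library (adjusted p = 0.084 and 0.052) or replicate 1 of hira-1(-) was left out (adjusted p = 0.084). Of 32 major sperm protein genes, whose products form the cytoskeleton of the crawling sperm, 30 fell and none rose, and their summed level was 1817 and 2003 CPM in N2 and 522 and 561 CPM in hira-1(-). Copies of these genes are nearly identical, so values of single members are uncertain. The gene msp-64 stood at 55.04 and 58.7 CPM in N2 and 15.3 and 16.1 CPM in hira-1(-) (log2 fold change -1.86, SE 0.067, adjusted p = 2.2e-10). Of 73 other sperm genes 46 fell and 3 rose (median -0.79), with the sperm-specific gene ssq-4 at 210.2 and 234 CPM in N2 and 31.6 and 33.4 CPM in hira-1(-) (log2 fold change -2.77, SE 0.096, adjusted p = 1.3e-08). The gene ssq-3 stood at 52.6 and 58.1 CPM in N2 and 9.64 and 10.6 CPM in hira-1(-) (log2 fold change -2.45). Neither sperm list overlapped between the genotypes in its summed level.

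Transcripts of oocytes and of the mitotic and meiotic germ line lay near the centre of all genes, and the direction of their small changes turned with the scaling. Of 32 oocyte and eggshell genes 5 rose and 10 fell, none of them by 2-fold (median 0.027, and -0.042 with RLE scaling), and with library totals 16 rose and 2 fell (median 0.23). The RNA-binding protein gene mex-5, which sets embryonic polarity, stood at 661 and 741 CPM in N2 and 964 and 1008 CPM in hira-1(-) (log2 fold change 0.49, SE 0.086, adjusted p = 7.5e-04). The egg gene egg-5 stood at 288 and 303 CPM in N2 and 242 and 245 CPM in hira-1(-) (log2 fold change -0.28, SE 0.047, adjusted p = 2.7e-04), a call lost with library totals (adjusted p = 0.23). The eggshell proteoglycan gene cpg-1 stood at 1086 and 1164 CPM in N2 and 1507 and 1801 CPM in hira-1(-) (log2 fold change 0.56, adjusted p = 0.016), a call that was lost when either N2 library (adjusted p = 0.11 and 0.065) or hira-1(-) replicate 2 was left out (adjusted p = 0.066). Of 25 meiotic genes 8 rose and 4 fell (median 0.11), and with library totals 19 rose and 1 fell (median 0.31). They include the synaptonemal complex gene syp-1 (higher, log2 fold change 0.46) and the kinase gene chk-2 (lower, log2 fold change -0.66). Of 20 P granule genes, whose products form the RNA granules of germ cells, 3 rose and 5 fell (median -0.0085), and with library totals 12 rose and 2 fell (median 0.20). Of 23 replication genes 3 rose and 9 fell (median -0.061), and with library totals 10 rose and none fell (median 0.15). Of 21 cyclin and mitosis genes 3 rose and 8 fell (median -0.059), and with library totals 10 rose and 2 fell (median 0.15). The share of these 5 lists that was called ran from 40.0% for P granule genes to 52.4% for cyclin and mitosis genes, below the 55.1% of all genes. That order depended on the scaling: with library totals, which moved the median of all genes to 0.24, the shares ran from 43.5% for replication genes to 20 of 25 (80%) for meiotic genes.

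Among germ line genes the Argonautes, which load small RNAs, were split with TMM scaling. Of 22 Argonaute genes 8 rose and 6 fell (median 0.043, and -0.025 with RLE scaling), whereas with library totals 14 rose and 2 fell (median 0.25). The Piwi gene prg-1 stood at 321 and 342 CPM in N2 and 543 and 575 CPM in hira-1(-) (log2 fold change 0.75, SE 0.054, adjusted p = 1.3e-07). The gene ppw-2 stood at 122 and 140 CPM in N2 and 225 and 259.5 CPM in hira-1(-) (log2 fold change 0.89, SE 0.079, adjusted p = 4.8e-06). The gene ppw-1 stood at 257 and 258 CPM in N2 and 392.1 and 434 CPM in hira-1(-) (log2 fold change 0.68, SE 0.063, adjusted p = 1.5e-06). In all 3 the mutant libraries lay above the N2 libraries. The germ line helicase gene glh-1, related to Vasa, moved the other way, at 678 and 755 CPM in N2 and 449 and 507 CPM in hira-1(-) (log2 fold change -0.58, SE 0.068, adjusted p = 1.3e-05).

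Among genes that embryos transcribe early, more rose than fell. Of 39 tested early embryonic genes (56 in the table) 21 rose, 1 fell and 17 were not called (median 0.88). The share called, 56.4%, was near the 55.1% of all genes. Of the 35 members under 10 CPM 20 rose and none fell, beside 3018 higher and 1402 lower of all 8812 genes in that range. The embryonic gene pes-10 stood at 2.34 and 2.37 CPM in N2 and 7.31 and 6.26 CPM in hira-1(-) (log2 fold change 1.53, SE 0.19, adjusted p = 2.4e-05). The gene sdz-28, one of a group that depends on the maternal factor SKN-1, stood at 2.004 and 1.54 CPM in N2 and 7.94 and 5.77 CPM in hira-1(-) (log2 fold change 1.96, SE 0.24, adjusted p = 2.3e-05). The T-box gene tbx-37 stood at 0.292 and 0.144 CPM in N2 and 1.22 and 0.716 CPM in hira-1(-) (log2 fold change 2.17). The list's summed level was 281 and 273 CPM in N2 and 336 and 309 CPM in hira-1(-). Its most abundant member was pal-1, a maternal transcript at 133 and 134 CPM in N2 and 137 and 130.4 CPM in hira-1(-). The endoderm genes end-1 and end-3 were not among the genes tested. Adults carry embryos, and the part that embryos in the uterus have in other gene groups was not tested. Of 13 T-box genes 7 rose and 1 fell (median 0.91, 61.5% called), and of 69 homeobox genes 25 rose and 2 fell (median 0.38, 39.1% called). Under 10 CPM 18 of 53 homeobox genes rose, a share near that of all genes in that range, and 1 fell. The homeobox gene ceh-43, related to Distal-less, stood at 1.75 and 1.44 CPM in N2 and 6.68 and 5.13 CPM in hira-1(-) (log2 fold change 1.89). The pharyngeal regulators pha-4 (4.38 and 2.98 CPM in N2 and 11.8 and 10.2 CPM in hira-1(-); log2 fold change 1.59) and tbx-2 (6.05 and 5.45 CPM in N2 and 14.02 and 14.2 CPM in hira-1(-); log2 fold change 1.3) were higher too.

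Most genes of fatty acid desaturation and elongation fell, as did many of fatty acid oxidation. Of 16 desaturase and elongase genes 13 fell and 1 rose (median -0.50, and -0.29 with library totals, where 8 fell). The stearoyl-CoA desaturase genes fat-7 (57.3 and 50.1 CPM in N2 and 11.5 and 11.9 CPM in hira-1(-); log2 fold change -2.19) and fat-6 (426 and 394 CPM in N2 and 222 and 224 CPM in hira-1(-); log2 fold change -0.88) fell. The elongases elo-5 (452 and 425 CPM in N2 and 193 and 189 CPM in hira-1(-); log2 fold change -1.2, SE 0.069, adjusted p = 2.5e-08) and elo-6 (792 and 771 CPM in N2 and 348 and 337 CPM in hira-1(-); log2 fold change -1.19) and the acyl-CoA synthetase gene acs-1 (558 and 519 CPM in N2 and 203 and 205 CPM in hira-1(-); log2 fold change -1.40, SE 0.057, adjusted p = 6.8e-10) act in the synthesis of branched-chain fatty acids, and all 3 fell by more than 1 on the log2 scale. Of 59 genes of fatty acid activation and oxidation 31 fell and 12 rose (median -0.24, and -0.035 with library totals, where 24 fell and 20 rose). The peroxisomal acyl-CoA oxidase gene acox-1.4, of a group that shortens ascaroside pheromones, stood at 41.6 and 42.4 CPM in N2 and 12.9 and 12.3 CPM in hira-1(-) (log2 fold change -1.74, SE 0.069, adjusted p = 5.7e-10). The enoyl-CoA hydratase family gene ech-9 rose (0.292 and 0.538 CPM in N2 and 16.5 and 13.4 CPM in hira-1(-); log2 fold change 5.13, SE 0.23, adjusted p = 1.8e-09). Of 39 lipase and lipid-binding genes 18 rose and 8 fell (median 0.53, and 0.44 with genes at their bound), while their summed level went from 4865 and 4661 CPM in N2 to 3281 and 3352 CPM in hira-1(-). The abundant members lipl-5, a lysosomal lipase gene (574 and 601 CPM in N2 and 316 and 332 CPM in hira-1(-); log2 fold change -0.86), and lbp-2 (249 and 219.8 CPM in N2 and 119.3 and 117 CPM in hira-1(-); -0.99) fell.

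Most respiratory chain and ribosomal protein genes fell by small amounts, and fewer did when libraries were divided by their totals. Of 28 genes of glycolysis, trehalose synthesis and the glyoxylate cycle 16 fell and 3 rose (median -0.19, and 0.019 with library totals, where 5 fell and 11 rose). The glyoxylate cycle gene icl-1 rose (34.8 and 33.1 CPM in N2 and 74.5 and 76.4 CPM in hira-1(-); log2 fold change 1.15, SE 0.075, adjusted p = 5.6e-08), and fbp-1, an enzyme gene of gluconeogenesis, fell (213 and 206 CPM in N2 and 106 and 107 CPM in hira-1(-); log2 fold change -0.97, SE 0.047, adjusted p = 3.5e-09). Of 67 nuclear genes of the respiratory chain 58 fell and none rose (median -0.37), and with library totals 40 fell and 4 rose. The complex III gene ucr-2.2 stood at 114 and 115 CPM in N2 and 66.0 and 69.7 CPM in hira-1(-) (log2 fold change -0.76). Of 78 ribosomal protein genes 67 fell and 1 rose, none by 2-fold (median -0.32), and with library totals 20 fell and 6 rose.

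Cathepsin and aspartyl protease genes changed in opposite directions. The cathepsin B-like genes cpr-1 and cpr-4 were among the largest gains in level in the mutant. The gene cpr-1 stood at 127 and 122 CPM in N2 and 1042 and 1078 CPM in hira-1(-) (log2 fold change 3.09, SE 0.081, adjusted p = 1.6e-11). The gene cpr-4 stood at 88.5 and 86.8 CPM in N2 and 1037 and 1072 CPM in hira-1(-) (log2 fold change 3.59, SE 0.19, adjusted p = 2.8e-05). The aspartyl protease gene asp-6 rose (748 and 698 CPM in N2 and 1539 and 1601 CPM in hira-1(-); log2 fold change 1.12). The gene asp-14 fell (354 and 347 CPM in N2 and 45.7 and 40.8 CPM in hira-1(-); log2 fold change -3.02, SE 0.069, adjusted p = 4.2e-12), as did cpz-1 (610.1 and 610.1 CPM in N2 and 248 and 239.7 CPM in hira-1(-); log2 fold change -1.32). In all, 12 of 23 rose and 9 fell (median 0.33), and 91.3% of the list was called. The nuclear receptor gene nhr-114, expressed in the intestine and germ line and needed for fertility on a diet of OP50, fell (117 and 116 CPM in N2 and 37.6 and 40.7 CPM in hira-1(-); log2 fold change -1.57, SE 0.055, adjusted p = 2.0e-10). Of 203 nuclear hormone receptor genes 57 rose and 15 fell (median 0.20, and 0.19 with genes at their bound), so that fewer were called than over all genes, at 35.5%.

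Among defence genes most lysozyme and pals genes rose, and lectins, saposin-like proteins and antimicrobial peptides changed in both directions. Of all tested genes 28.6% rose and 26.5% fell. Under 10 CPM all 7 lysozyme and 20 of 28 pals genes rose, beside 3018 of all 8812 genes in that range. At 100 CPM and over 2 lysozyme genes rose and 1 fell (median 0.22). Of 13 lysozyme genes 10 rose and 2 fell (median 2.72). The gene lys-7, known from responses to bacterial pathogens, stood at 50.6 and 49.2 CPM in N2 and 215 and 195 CPM in hira-1(-) (log2 fold change 2.04, SE 0.058, adjusted p = 2.3e-11). The gene lys-4 stood at 12.82 and 11.6 CPM in N2 and 89.9 and 74.3 CPM in hira-1(-) (log2 fold change 2.75). The gene lys-10 stood at 0.209 and 0.323 CPM in N2 and 9.24 and 10.7 CPM in hira-1(-) (log2 fold change 5.19). The abundant invertebrate-type lysozyme gene ilys-5 fell, at 671 and 634 CPM in N2 and 234 and 239.9 CPM in hira-1(-) (log2 fold change -1.46, SE 0.11, adjusted p = 1.3e-05). The list's summed level overlapped between genotypes, at 1508 and 1414 CPM in N2 and 1472 and 1431 CPM in hira-1(-). Of 30 tested pals genes, a family that responds to intracellular pathogens, 22 rose and 1 fell (median 1.95). The gene pals-14 stood at 0.292 and 0.144 CPM in N2 and 6.23 and 6.90 CPM in hira-1(-) (log2 fold change 4.92, SE 0.27, adjusted p = 1.1e-08). Of 168 tested C-type lectin genes, 66 rose and 62 fell (median 0.12, and 0.10 with genes at their bound). The lectin gene clec-52 stood at 9.15 and 10.9 CPM in N2 and 61.2 and 59.9 CPM in hira-1(-) (log2 fold change 2.59). The gene clec-186 stood at 65.9 and 66.6 CPM in N2 and 18.7 and 19.6 CPM in hira-1(-) (log2 fold change -1.79). Of 44 antimicrobial peptide genes 20 rose and 14 fell (median 0.18). The gene fipr-21 stood at 149 and 135 CPM in N2 and 36.7 and 36.4 CPM in hira-1(-) (log2 fold change -1.96). Of 22 saposin-like genes 9 rose and 9 fell (median -0.091, and 0.12 with library totals). Of 8 infection response genes 4 rose and 2 fell (median 0.65).

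Genes of detoxification were split, and the share called was near that of all genes in several lists. Of all tested genes 28.6% rose, 26.5% fell and 55.1% were called. Among lists of at least 30 genes, 60.9% of cytochrome P450, 67.7% of glucuronosyltransferase and 48.8% of glutathione transferase genes were called. For short-chain dehydrogenase genes the share was 56.7%, and for oac genes 59.1%. Whether a list differed from all genes was not tested. Of 64 cytochrome P450 genes 22 rose and 17 fell (median 0.38). The gene cyp-25A1 stood at 15.3 and 16.4 CPM in N2 and 2.74 and 2.60 CPM in hira-1(-) (log2 fold change -2.56, SE 0.14, adjusted p = 1.1e-08). The gene cyp-37B1 stood at 1.38 and 0.897 CPM in N2 and 8.16 and 9.46 CPM in hira-1(-) (log2 fold change 2.97, SE 0.19, adjusted p = 4.5e-08). Of 62 glucuronosyltransferase genes 17 rose and 25 fell (median -0.17, and 0.033 with library totals, where 24 rose and 20 fell). The gene ugt-22 stood at 245 and 269.9 CPM in N2 and 111 and 111.5 CPM in hira-1(-) (log2 fold change -1.21). Of 41 glutathione transferase genes 13 rose and 7 fell (median 0.13). The gene gst-10 fell (172 and 165 CPM in N2 and 42.3 and 45.04 CPM in hira-1(-); log2 fold change -1.95, SE 0.061, adjusted p = 6.2e-11), and gst-24 rose (4.76 and 3.66 CPM in N2 and 28.3 and 30.3 CPM in hira-1(-); log2 fold change 2.81, SE 0.12, adjusted p = 1.2e-09). Of 30 short-chain dehydrogenase genes 13 fell and 4 rose (median -0.15, and 0.053 with library totals, where 11 rose and 8 fell). The dehydrogenase gene dhs-3, a protein of intestinal lipid droplets, stood at 95.9 and 101 CPM in N2 and 39.7 and 40.0 CPM in hira-1(-) (log2 fold change -1.31, SE 0.054, adjusted p = 7.5e-10). Of 5 flavin monooxygenase genes 3 rose and 1 fell. The acyltransferase oac genes were less split: of 44, 22 rose and 4 fell (median 1.02, and 1.00 with genes at their bound).

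Stress genes gave no common direction with TMM scaling. The share called was lowest for heat shock and J domain genes, at 54.9%, near the 55.1% of all genes. It was highest for the 9 metal response genes, at 77.8%. Of transthyretin-like genes 28.6% rose, the same share as of all genes. Whether a list differed from all genes was not tested. Of 51 heat shock and J domain genes 9 rose and 19 fell (median -0.072, and 0.13 with library totals, where 24 rose and 8 fell). The small heat shock gene hsp-16.11 stood at 2.92 and 2.80 CPM in N2 and 13.4 and 12.9 CPM in hira-1(-) (log2 fold change 2.20, SE 0.13, adjusted p = 2.4e-08). The gene hsp-12.2 stood at 28.02 and 25.5 CPM in N2 and 12.4 and 12.3 CPM in hira-1(-) (log2 fold change -1.11, SE 0.097, adjusted p = 9.0e-07). Of 9 metal response genes 3 rose and 4 fell (median 0.085). The gene numr-1 rose (0.793 and 0.753 CPM in N2 and 8.09 and 9.05 CPM in hira-1(-); log2 fold change 3.46, SE 0.19, adjusted p = 1.2e-08), and the metallothionein gene mtl-2 fell (65.8 and 63.5 CPM in N2 and 26.1 and 26.5 CPM in hira-1(-); log2 fold change -1.3). Of 23 antioxidant genes 7 rose and 9 fell (median -0.069, and 0.14 with library totals, where 10 rose and 5 fell). The catalase gene ctl-3 stood at 19.7 and 18.5 CPM in N2 and 50.6 and 61.0 CPM in hira-1(-) (log2 fold change 1.55), and the extracellular superoxide dismutase gene sod-4 at 7.02 and 7.43 CPM in N2 and 18.8 and 17.8 CPM in hira-1(-) (log2 fold change 1.34). Of 56 transthyretin-like genes 16 rose and 20 fell (median -0.039, and 0.17 with library totals, where 24 rose and 13 fell). The gene ttr-16 stood at 251 and 237 CPM in N2 and 53.7 and 56.6 CPM in hira-1(-) (log2 fold change -2.15). Outside the stress lists, of 40 tested gtnt genes 14 rose and 3 fell (median 1.5, and 0.80 with genes at their bound, since 10 had a group at 0). The share of gtnt genes called was 42.5%.

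Most genes of peptide signals did not pass the test. The share that rose was 30.8% of insulin-like, 16.7% of FMRFamide-like, 31.9% of other neuropeptide and 39.1% of pan-neuronal genes, beside 28.6% of all genes. Of 26 insulin-like genes (40 in the table) 8 rose and 2 fell (median 0.27). The gene ins-7, which encodes a ligand that activates the insulin receptor DAF-2, stood at 1.13 and 1.29 CPM in N2 and 9.98 and 9.65 CPM in hira-1(-) (log2 fold change 3.01, SE 0.19, adjusted p = 5.2e-08). The gene ins-31 stood at 9.90 and 9.87 CPM in N2 and 1.22 and 1.24 CPM in hira-1(-) (log2 fold change -3.0, SE 0.29, adjusted p = 7.5e-06). The gene ins-8 had no N2 count and stood at 1.48 and 0.98 CPM in the mutant (adjusted p = 0.00011, and adjusted p = 0.20 with DESeq2). Of 30 FMRFamide-like genes 5 rose and 1 fell (median 0.21), and of 72 other neuropeptide genes 23 rose and 8 fell (median 0.34). The nlp genes nlp-24 (109 and 103 CPM in N2 and 32.5 and 30.1 CPM in hira-1(-); log2 fold change -1.76) and nlp-26 (20 and 18.01 CPM in N2 and 4.49 and 4.37 CPM in hira-1(-); -2.1) fell. Of 23 pan-neuronal genes 9 rose and 3 fell (median 0.11). Among them the dense-core vesicle genes unc-31 (3.63 and 3.98 CPM in N2 and 11.2 and 12.6 CPM in hira-1(-); log2 fold change 1.64, SE 0.17, adjusted p = 3.9e-06) and ida-1 (16.5 and 15 CPM in N2 and 29.8 and 26.2 CPM in hira-1(-); log2 fold change 0.84) were higher. The list's summed level was 831 and 781 CPM in N2 and 864 and 867 CPM in hira-1(-). Only 115 of 1635 chemoreceptor genes were tested, of which 53 rose and 7 fell (median 1.21, and 1.02 with genes at their bound). Most lay under 10 CPM, where 51 of 109 rose and 5 fell, beside 3018 and 1402 of all 8812 genes in that range. One of the 7 chemoreceptor genes that fell was sri-40, at 57.3 and 60.8 CPM in N2 and 8.75 and 7.84 CPM in hira-1(-) (log2 fold change -2.83).

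More muscle genes fell than rose with TMM scaling. Of 31 body wall muscle genes 15 fell and 7 rose (median -0.18, and 0.030 with library totals, where 8 fell and 10 rose). The calponin-like gene cpn-3 stood at 337 and 311 CPM in N2 and 96.2 and 95.9 CPM in hira-1(-) (log2 fold change -1.75, SE 0.055, adjusted p = 6.2e-11). The troponin C gene pat-10 stood at 1125 and 1047 CPM in N2 and 601 and 609 CPM in hira-1(-) (log2 fold change -0.84, SE 0.056, adjusted p = 6.9e-08). The calponin-like gene clik-1 stood at 911 and 809.7 CPM in N2 and 493 and 498 CPM in hira-1(-) (log2 fold change -0.80). Of 16 pharynx genes 6 rose and 3 fell (median 0.29), and the gland genes phat-3 and phat-2 went in opposite directions (log2 fold change -2.17 and 1.83). Of 18 actin and tubulin genes 8 rose and 4 fell (median 0.14). The gene tbb-6 stood at 2.30 and 2.05 CPM in N2 and 12.6 and 14.02 CPM in hira-1(-) (log2 fold change 2.62). The gene tba-4 stood at 116 and 123 CPM in N2 and 66.4 and 69.7 CPM in hira-1(-) (log2 fold change -0.81). Of 12 heterochronic genes, which time the larval stages, 8 rose and 1 fell (median 0.45). The transcription factor gene lin-14 stood at 9.56 and 8.47 CPM in N2 and 14.5 and 17.3 CPM in hira-1(-) (log2 fold change 0.82, SE 0.12, adjusted p = 7.3e-05). The period homologue lin-42, which cycles with the molts, stood at 3.51 and 3.95 CPM in N2 and 10.5 and 16.4 CPM in hira-1(-) (log2 fold change 1.84, SE 0.28, adjusted p = 0.0023).

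Among substrate adaptors of protein degradation more genes rose than fell, and many were not called. F-box, MATH and BTB proteins are adaptors that bring substrates to ubiquitin ligases, and skr genes encode the Skp1 subunits that bind F-box proteins. Of 280 F-box genes (390 in the table) 115 rose and 14 fell (median 0.65). The gene fbxa-24 stood at 0.960 and 0.789 CPM in N2 and 36.9 and 36.9 CPM in hira-1(-) (log2 fold change 5.40, SE 0.15, adjusted p = 1.6e-11). Of 76 MATH and BTB genes 35 rose and 8 fell (median 0.39). The gene math-38 stood at 1.80 and 1.90 CPM in N2 and 18.4 and 19.5 CPM in hira-1(-) (log2 fold change 3.35, SE 0.14, adjusted p = 9.7e-10). Of 20 skr genes 10 rose and 3 fell (median 0.53). The gene skr-5 stood at 0.543 and 0.538 CPM in N2 and 6.34 and 7.46 CPM in hira-1(-) (log2 fold change 3.66, SE 0.26, adjusted p = 1.4e-07). The gene skr-3 stood at 24.1 and 24.5 CPM in N2 and 53.1 and 53.6 CPM in hira-1(-) (log2 fold change 1.13). The shares called of 46.1% for F-box and 56.6% for MATH and BTB genes lay near or below the 55.1% of all genes. Most members that were called were higher, as were most of the low genes called: under 10 CPM, 3018 of 8812 genes rose and 1402 fell. In that range 108 of 259 F-box genes rose and 10 fell, and 23 of 54 MATH and BTB genes rose and 4 fell.

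Most core histone transcripts rose, and the histone chaperone transcripts other than hira-1 differed by small amounts. Of 59 tested core histone genes 38 rose and 5 fell (median 1.52), and their summed level was 236 and 229 CPM in N2 and 544 and 532 CPM in hira-1(-). The rises were mostly of genes under 10 CPM, where 35 of 53 rose and 2 fell. Of all 8812 genes in that range 3018 rose and 1402 fell. From 10 to 100 CPM 3 of 6 core histone genes rose and 3 fell (median -0.0635). The H2A, H2B, H3 and H4 genes of worms lie in clusters of copies that share reads, and histone messages mostly end without the poly(A) tail by which RNA was selected, so single values are uncertain. The copies his-10, his-14 and his-26 had the same values, 0.334 and 0.502 CPM in N2 and 15.8 and 16.4 CPM in hira-1(-). The gene his-11 stood at 1.13 and 0.897 CPM in N2 and 32.1 and 32.3 CPM in hira-1(-) (log2 fold change 5.0, SE 0.14, adjusted p = 1.8e-11). Of 4 H3.3 genes tested, his-72 (179 and 186 CPM in N2 and 379.8 and 380.1 CPM in hira-1(-); log2 fold change 1.06, SE 0.054, adjusted p = 6.0e-09) and his-71 rose and his-74 fell, the last not with library totals (adjusted p = 0.74). Of 8 chaperone genes 3 fell, hira-1 with rba-1 and chaf-2, and none rose (median -0.085). With library totals (median 0.12) only hira-1 fell, and asfl-1, unc-85 and lin-53 rose (log2 fold change 0.31, 0.22 and 0.13). The falls of rba-1 (log2 fold change -0.14) and chaf-2 (-0.18) turned to 0.065 and 0.025 with library totals, where neither passed, and both calls were lost when N2 replicate 2 was left out (adjusted p = 0.21 and 0.12). They were also lost when hira-1(-) replicate 1 was left out (adjusted p = 0.12 and 0.079), and that of rba-1 when hira-1(-) replicate 2 was (adjusted p = 0.093). Of 59 genes of histone methylation and heterochromatin 20 rose and 11 fell (median 0.025, and -0.043 with RLE scaling), and with library totals 34 rose and 1 fell (median 0.23). The demethylase gene jmjd-3.1 stood at 7.77 and 6.996 CPM in N2 and 19.3 and 19.2 CPM in hira-1(-) (log2 fold change 1.39, SE 0.088, adjusted p = 4.2e-08). The SET domain gene set-12 stood at 2.59 and 2.40 CPM in N2 and 6.57 and 6.18 CPM in hira-1(-) (log2 fold change 1.35), and the Polycomb complex gene mes-3 at 80.2 and 80.9 CPM in N2 and 101 and 99.7 CPM in hira-1(-) (log2 fold change 0.32).

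Some of the changes of at least 2-fold occurred in runs of neighbouring genes. Counting genes that follow each other among those tested in the order of the annotation, there were 44 runs of at least 4 genes that all rose, holding 232 genes, and 12 runs of genes that all fell, holding 59. In all, 2542 genes rose and 1053 fell at least 2-fold, so most such changes lay outside these runs. Whether neighbours changed together more often than other genes was not tested. The longest run held 15 genes that rose: K05F6.10, math-38, clec-21, bath-46, bath-26, bath-47, fbxa-161 to fbxa-166, fbxa-158, C08E3.13 and C08E3.1. In this run fbxa-163 stood at 0.0835 and 0.0718 CPM in N2 and 4.60 and 4.41 CPM in hira-1(-) (log2 fold change 5.79) and bath-47 at 0.626 and 0.718 CPM in N2 and 8.09 and 11.04 CPM in hira-1(-) (log2 fold change 3.82). No gene of it reached 2 CPM in either N2 library. The genes fbxa-164 and C08E3.1 had no N2 count, so their fitted fold changes are no measure of size. The next longest were 11 histone genes from his-15 to his-43, with log2 fold changes from 4.47 to 5.23, and 9 genes from his-51 to his-28, of which 5 are core histone genes; copies in these runs share reads. Of the runs that fell, the longest held 8 genes, among them msp-55 (39.8 and 45.6 CPM in N2 and 9.198 and 11.3 CPM in hira-1(-); log2 fold change -2.06), msp-57 and msp-53, with C09B9.7, ttbk-2.2, R13H9.6, rmd-6 and C02B10.6. The 6 pud genes and the receptor gene srbc-15 (8.23 and 6.71 CPM in N2 and 2.26 and 2.34 CPM in hira-1(-); log2 fold change -1.69) formed a run of 7. The genes nspc-16 to nspc-20 formed a run of 5 and fell by 1.2 to 4.7 on the log2 scale, and the oxidase genes acox-1.1 to acox-1.4 lay in a run of 5 with log2 fold changes from -1.74 to -1.01. Neighbouring genes of a family can share reads, and neighbours need not be adjacent in the genome, since untested genes lie between some of them.

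**Figure D5:**
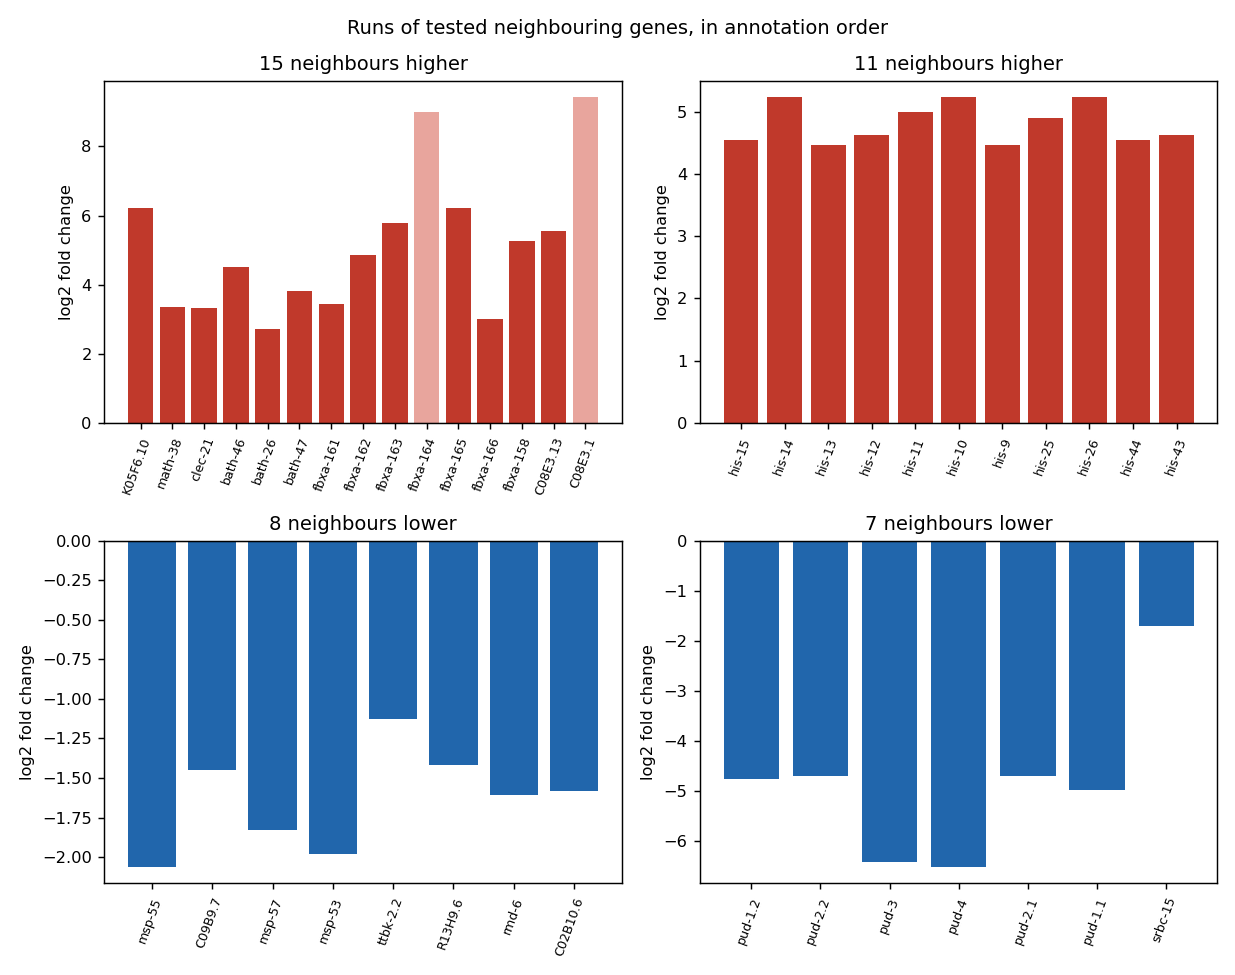
Log2 fold change of hira-1(-) over N2 adults (y axis) for each gene of the 2 longest runs of neighbouring tested genes that rose (top) and that fell (bottom), in annotation order along the x axis. Pale bars mark fbxa-164 and C08E3.1, which had no N2 count and whose height depends on the prior count of the fit. The bars of a run all point 1 way and are at least 1 in size.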

How the data were processed

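RNA with a poly(A) tail from N2 and hira-1(-) worms was sequenced from paired ends, and RSEM 1.2.15 with Bowtie 1.0.1, SAMtools 0.1.19 and the ce10 build are named in the submitters' processing notes, without their settings or the annotation. The authors deposited an estimated count per gene, which need not be whole, and, in a table the authors named as FPKM on a log2 scale, values that correct for transcript length and library size. No label or header says whether strand was used in counting. A column was tied to a sample by its name, and 10 columns of the count table were not used. Of 45461 rows, 44080 were matched by name to the reference annotation, which is of another build than the files, so no coordinates are given.

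Estimated counts were rounded and tested in R 4.3.3 with edgeR 4.0.16 (quasi-likelihood F-test, robust, TMM scaling, genes kept by a minimum count of 10 and total of 15). The 4 adult libraries and 4 larval libraries of stage L4 were fitted as 4 groups. The larval libraries entered the filter, the scaling and the estimate of spread, and not the contrast. With the adult libraries alone 15550 genes were tested, beside 16770. P-values were adjusted by the Benjamini-Hochberg method over the 16770 genes tested, with a threshold of 0.05. Every row of the table names a gene, so none was left out as a total or an unassigned row. A level is given as CPM of the TMM-scaled library, so levels of different genes also depend on transcript length. The replicates of a genotype differed beyond sampling noise (chi-square per degree of freedom 17.9 in N2 and 5.44 in hira-1(-)), so none was a repeat deposit. In simulated counts 200 genes with a mean of at least 1 CPM were changed in hira-1(-) adults, as many up as down. The larval libraries were given the adult levels. Of these changes 84% of 2-fold and 73% of 1.5-fold ones were recovered, with 15733 genes tested and 16 unchanged genes called. Far more genes differed in the data, and many lay under 1 CPM, so these rates need not hold there.

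The gene lists, and the rule for named genes, were chosen with earlier results of these data known, and the nspc list was added after its members were seen. Named were the 12 largest changes per direction with a gene name and the 3 with a sequence name only (at 5 CPM or more in the higher genotype and with no overlap), the 6 largest differences in level per direction, for each list the 3 or fewer members of smallest adjusted p, genes with no count in 1 genotype and the longest runs of neighbouring genes. Others were named after their values were seen, most of them as the extremes or best known members of a list. Alternatives were RLE scaling, library totals, other filters, a 1.5-fold minimum, DESeq2 1.42.0, limma 3.58.1 on the deposited log2 FPKM, the adult libraries alone, a replicate block, leaving out each library, ribosomal RNA genes or the 100 most abundant genes, the last chosen after seeing the data. Promoter sequences were not analysed here.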

Additional observations from a re-analysis of the deposited data

How the results depend on the processing

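With a 1.5-fold minimum 3443 genes were called, 2308 higher and 1135 lower. Dividing by library totals gave 7198 higher and 2320 lower, and limma on the deposited log2 FPKM gave 2265 lower; the cause was not tested. Under the other alternatives the counts in each direction stayed within 1.5 times. DESeq2 called 7846 genes, and without 1 library the calls numbered 7424 to 8397. None of the 3595 genes called at least 2-fold changed sign under any alternative, and between 2619 and 3593 of them were called again, the lowest number with a filter that tested fewer genes. The hira-1 transcript was called lower under all alternatives. Reversals were counted over 219 named genes only. Among these, the called falls that reversed were those of rba-1, at 0.0645 with library totals and 0.0647 with limma, and chaf-2, at 0.0254 and 0.0248. Small falls of other genes were not followed singly, and library totals raised the median of all genes from 0.029 to 0.24. The gene nhr-23, not called, was higher with both, at 0.198 and 0.203, and lin-53, not called, was called higher with library totals, at 0.128, and lower with RLE scaling, at -0.147. The replicate numbers did not pair the libraries by the rule used (correlation of deviations 0.126 for 2 pairs), and a fit of the 4 adult libraries with a replicate block called 9668 genes, beside 9293 without it; vit-6, vit-1, irg-7, nspc-2 and nspc-6 were not called with the block (adjusted p from 0.052 to 0.17). The calls of vit-5 (adjusted p = 0.054 without hira-1(-) replicate 1), hsp-1, air-2, cey-3, his-74, mcm-6 and cyb-2.1 were each lost under at least 1 alternative other than the fold minimum. Levels under 3 counts per library, or 0.116 CPM in N2 and 0.112 CPM in hira-1(-), set the limit for genes with no count.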
